A study of Mus musculus with 66 samples.

Results

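The genes described here are the 3 D-type cyclins (Ccnd1, Ccnd2, Ccnd3), their kinases Cdk4 and Cdk6, the 2 E-type cyclins (Ccne1, Ccne2), the pocket proteins Rb1 and Rbl1 and the inhibitor Cdkn1b. They are 10 genes of the 55487 gene identifiers in each table, matched by symbol. Ccnd2 was chosen by its measured level, which was high in the libraries named GDel2, so its values there are a description and are not tested. The other 9 genes were named for their place in the pathway. RNA was sequenced from E14 mouse embryonic stem cells, untreated and grown in serum with LIF, a GSK inhibitor and an inhibitor of MEK1/2. The 2 GDel1 and 2 GDel2 libraries share the genotype label Praf2 G4 Deletion, and the 3 WT libraries carry the wildtype label. Whether GDel1 and GDel2 stand for different clones, and whether the libraries of a group came from separate cultures, is not in the labels. The p-values therefore measure the spread between these libraries, which may be technical.

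D-type cyclins bind CDK4 or CDK6, and the active kinase phosphorylates RB1 and the related pocket protein p107, the product of Rbl1. Pocket proteins hold E2F transcription factors in check, and their phosphorylation frees E2F to switch on S phase genes and the E cyclins, which partner CDK2. p27, the product of Cdkn1b, inhibits cyclin-CDK2 complexes. Mouse embryonic stem cells are known for a short G1 phase, while inhibition of MEK lowers the mitogen signal that feeds Ccnd1.

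E2F acts on promoters, and the deletion is labelled G4, the usual short form of G-quadruplex, so both letter patterns were looked for in the promoters of the genes. RefSeq promoter windows of build GRCm38.p6, 250 bases before to 50 after the start, were matched for 6 of the 10 genes, Ccnd3 with 2 of them. No window was available for Ccnd1, Ccnd2, Ccne2 and Rb1, so their promoters were not searched. E2F letters were taken as TTTCCCGC, TTTCGCGC, TTTGCCGC or TTTGGCGC on either strand, and 1 of the 7 windows, that of Rbl1, held such a match, against 2.265% of 32851 promoter windows of the same length. In the Rbl1 promoter at chr2:157204485-157204784, minus strand, capitals mark the match, which begins at position -18 from the start.
Rbl1: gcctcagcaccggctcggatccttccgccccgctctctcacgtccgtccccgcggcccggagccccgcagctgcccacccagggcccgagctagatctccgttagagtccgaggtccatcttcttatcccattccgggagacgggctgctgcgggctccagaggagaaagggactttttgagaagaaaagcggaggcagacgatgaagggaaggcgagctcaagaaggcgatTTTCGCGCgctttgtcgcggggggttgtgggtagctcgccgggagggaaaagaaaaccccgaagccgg
A run pattern of 4 stretches of at least 3 G, or of at least 3 C, with 1 to 7 bases between them, was present in 4 of the 7 windows, those of Rbl1, Ccne1 and Cdk4 and 1 of the 2 of Ccnd3, against 18.6% of all promoter windows. It is shown for Ccne1, the E cyclin with the higher level, at chr7:38107441-38107740, minus strand, where capitals mark the pattern.
Ccne1: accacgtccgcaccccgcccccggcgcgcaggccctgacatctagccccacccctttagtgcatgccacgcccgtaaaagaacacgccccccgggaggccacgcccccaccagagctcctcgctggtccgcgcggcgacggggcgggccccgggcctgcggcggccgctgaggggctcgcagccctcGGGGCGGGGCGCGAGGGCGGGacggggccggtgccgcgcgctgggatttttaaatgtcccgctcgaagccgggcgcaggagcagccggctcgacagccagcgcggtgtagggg
The windows of Cdk6 and Cdkn1b held neither pattern. A match is a description of letters and not a measured site.

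Praf2 itself was lower in both deletion groups. It stood at 10.1 and 9.26 CPM in GDel1, at 13.1 and 14.1 CPM in GDel2 and at 27.5, 28.8 and 30.6 CPM in WT, where CPM is the normalised count scaled to a fixed total on TMM library sizes. It fell by 1.59 on the log2 scale in GDel1 against WT (SE 0.11, edgeR quasi-likelihood test with Benjamini-Hochberg adjustment over 15421 genes, adjusted p = 0.00206) and by 1.09 in GDel2 against WT (SE 0.11, adjusted p = 0.000201). Total expected counts were 12316853 to 18762704 per library. Mitochondrially encoded genes took 9.91% of the reads in GDel1 replicate 1 and 9.60% in GDel2 replicate 2, against 4.83 to 6.89% in the other 5 libraries. The same adjusted p and its threshold of 0.05 are used throughout.

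Levels between genes are compared per length, in TPM, the deposited length-scaled unit. In WT, Cdk4 was the most abundant of the 10 genes at 317 ± 40.0 TPM (SD, n = 3). Ccne1 at 64.5 ± 9.67 TPM and Ccnd3 at 59.7 ± 6.10 TPM followed, and the libraries of these 2 genes overlapped. Ccnd1, the D cyclin most tied to mitogen signals, stood at 19.1 ± 2.06 TPM and Cdk6 at 8.86 ± 1.71 TPM. Cdkn1b, Rbl1 and Ccne2 averaged 6.36, 6.05 and 5.74 TPM with overlapping libraries. Rb1 was lower at 2.59 ± 0.14 TPM, and Ccnd2 was last at 0.090 ± 0.044 TPM.

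Ccnd2 was high in both GDel2 libraries and near 0 in the other 5. It held 228 and 298 expected counts in the GDel2 libraries, against 4 and 2 in GDel1 and 3, 6 and 6 in WT. On the CPM scale these were 18.0 and 21.5 in GDel2, 0.32 and 0.10 in GDel1 and 0.22, 0.37 and 0.32 in WT. The GDel2 libraries did not overlap the others, while the GDel1 and WT libraries overlapped. The fitted log2 fold change was 5.97 (SE 0.27) in GDel2 against WT and 6.63 (SE 0.34) in GDel2 against GDel1, both given without a test because Ccnd2 was chosen for this difference. In GDel1 against WT the log2 fold change was -0.66 (SE 0.53, edgeR adjusted p = 0.535), on counts too low to show a moderate difference. Ccnd2 passed the count filter only through its GDel2 counts and was not in the fit of GDel1 and WT alone. The choice also favoured a gene near 0 outside GDel2, so the lack of a call in GDel1 against WT decides nothing. Leaving out GDel1 replicate 1 or 2 moved the GDel2 against GDel1 value to 7.46 or 5.90, and Ccnd2 in GDel1 against WT turned to 0.066 without GDel1 replicate 2. In TPM, Ccnd2 reached 2.86 and 2.59 in GDel2, against 0.02 and 0.01 in GDel1 and 0.06, 0.14 and 0.07 in WT. In bulk samples, a few cells with much Ccnd2 and many cells with a little cannot be told apart.

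**Figure D1:**
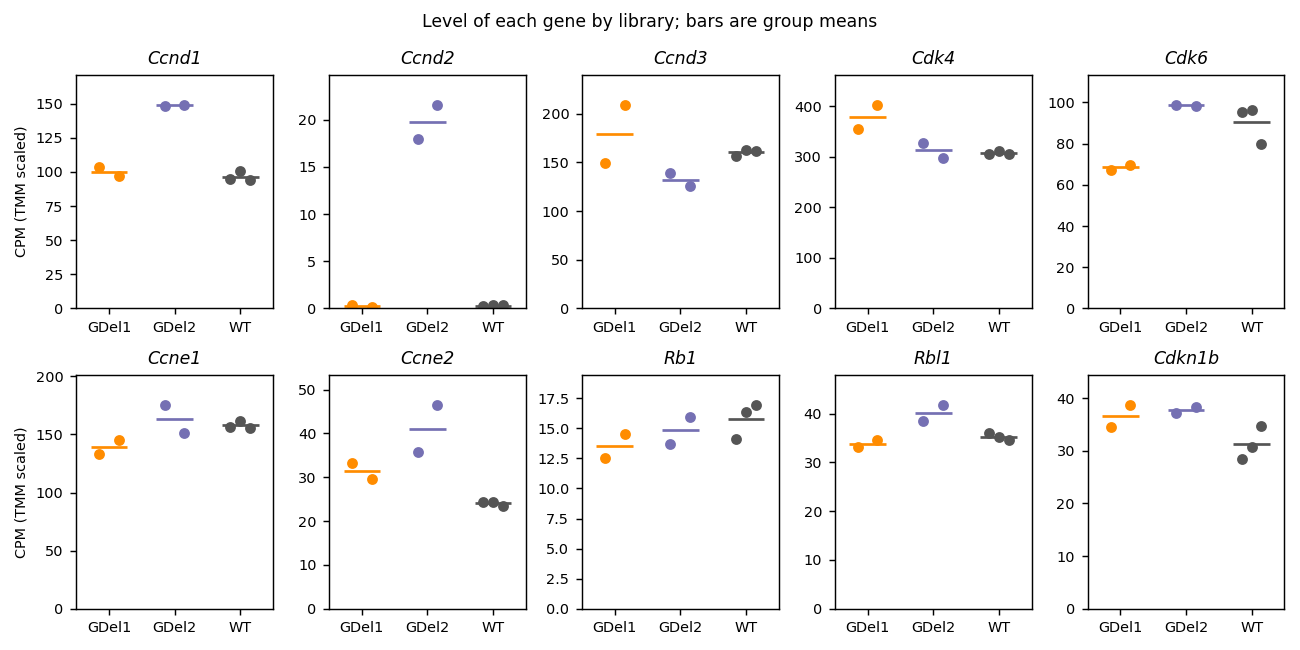
Level of each of the 10 genes in CPM (linear axis from 0, TMM-scaled) by library, with GDel1, GDel2 and WT from left to right; points are libraries and bars are group means. Ccnd2 stood at 18.0 and 21.5 CPM in GDel2 and at or under 0.37 CPM in the other 5 libraries, and Ccnd1 was near 149 CPM in both GDel2 libraries.

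Ccnd2 lies on chromosome 6 at 127125162 to 127152188 (GRCm38.p6), and genes of that chromosome were also shifted in GDel2. The median log2 fold change of the 657 other chromosome 6 genes in the fit was 0.51 in GDel2 against WT, or 1.42-fold, while the median over all other chromosomes was 0.00. Of the 657, 336 were called higher in GDel2, against 17.4% of all genes tested. The 78 other genes within 5 Mb of Ccnd2 had a lower median than the chromosome, 0.28. In GDel1 against WT the chromosome 6 median was -0.01. Ccnd2 itself was 62.8-fold higher in GDel2 than in WT. Of 5 other genes in the fit within 500 kb of Ccnd2, 4 rose in GDel2 against WT and none fell, with a median log2 fold change of 0.71. Beside Ccnd2, Tigar, a fructose bisphosphatase that is a p53 target, was at 152 and 144 CPM in GDel2 against 81.4 to 86.3 CPM in WT (log2 fold change 0.82, adjusted p = 0.000155). Rad51ap1 rose by 0.71 (adjusted p = 0.000513) and D6Wsu163e by 0.88 (adjusted p = 0.000613). The other 2 were outside the rule for named genes and were added after their values were seen. Ndufa9, a gene of mitochondrial complex I, rose by 0.67 (adjusted p = 0.000442), and Parp11 gave -0.02 (adjusted p = 0.921). Ndufa9 also stood higher in GDel1, at 81.5 and 86.7 CPM against 61.1 to 63.8 CPM in WT (0.43, edgeR adjusted p = 0.0528). In GDel2 against GDel1, 3 of the 5 neighbours were called higher, while Ndufa9 gave 0.24 (edgeR adjusted p = 0.0732). Of the 5, 0 in GDel1 against WT passed the edgeR test, with a median of 0.14; 1 passed with DESeq2 and 1 with limma on log2(TPM + 1). The part of the chromosome 6 shift in the Ccnd2 difference was not tested. One annotated gene, 9330179D12Rik, overlaps Ccnd2 and had 0 CPM in all 7 libraries.

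**Figure D2:**
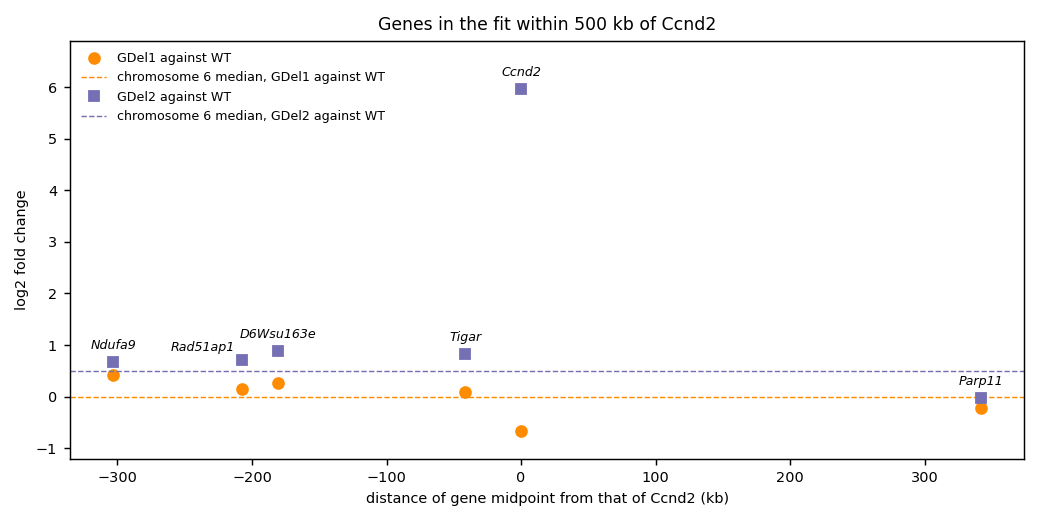
Log2 fold change against WT (y axis) of the genes in the fit within 500 kb of Ccnd2 by distance of their midpoints from that of Ccnd2 in kb (x axis); circles are GDel1, squares are GDel2, and dashed lines are the chromosome 6 medians. Ccnd2 stands at 5.97 in GDel2 and its neighbours between -0.02 and 0.88.

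Genes whose profile over the 7 libraries was nearest to that of Ccnd2, by root mean square distance of centred log2 CPM, were Nnat (0.573), Cd180 (0.927), Pramel6 (0.945) and Spn (0.998). They lie on chromosomes 2, 13, 2 and 7. Nnat, an imprinted gene that encodes neuronatin, was at 3.16 and 3.98 CPM in GDel2, at 0.08 and 0.00 CPM in GDel1 and at 0.00 CPM in each WT library. Cd180, a Toll-like receptor homologue, was at 7.73 and 7.23 CPM in GDel2 and between 0.16 and 0.42 CPM in the other 5 libraries. Pramel6 was at 9.86 and 8.60 CPM and Spn at 7.89 and 8.17 CPM in GDel2, with no other library above 0.73 CPM. As the choice requires, all 4 genes were low in GDel1 and WT and high in both GDel2 libraries.

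Ccnd1 also rose in GDel2. It was at 149 CPM in both GDel2 libraries (148.6 and 149.1), at 103 and 97.3 CPM in GDel1 and at 95.0, 100.5 and 94.4 CPM in WT. The GDel2 libraries lay above all others, and the GDel1 and WT libraries overlapped. The log2 fold change was 0.62 in GDel2 against WT (SE 0.08, edgeR adjusted p = 0.000584), 0.57 in GDel2 against GDel1 (SE 0.09, adjusted p = 0.002) and 0.05 in GDel1 against WT (SE 0.08, adjusted p = 0.72), the last turning to -0.43 with limma on log2(TPM + 1), where the median of all genes was itself at -0.30. On that TPM scale the GDel2 against WT difference of Ccnd1 was 0.42 and did not pass (limma adjusted p = 0.103). Ccnd1 lies on chromosome 7, whose median in GDel2 against WT was -0.13.

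Ccnd3, the most abundant D cyclin here, was lower in the GDel2 libraries without passing the main edgeR test. It was at 139 and 126 CPM in GDel2, 149 and 209 CPM in GDel1 and 157, 163 and 162 CPM in WT. All GDel2 libraries were below all WT and GDel1 libraries, and the GDel1 libraries were far apart, on both sides of WT. The log2 fold change was -0.28 in GDel2 against WT (SE 0.13, edgeR adjusted p = 0.145) and -0.44 in GDel2 against GDel1 (SE 0.15, adjusted p = 0.0543). DESeq2 called Ccnd3 lower in GDel2 against GDel1, as did edgeR without a count filter. In GDel2 against WT it was called lower by edgeR without a count filter and in the fit of those groups alone. GDel1 against WT gave 0.16 (adjusted p = 0.49), which turned to -0.11 without GDel1 replicate 2 and to -0.34 with limma on log2(TPM + 1). Without GDel1 replicate 1 the Ccnd3 differences were -0.28 in GDel2 against WT (adjusted p = 0.0119), -0.66 in GDel2 against GDel1 (adjusted p = 0.000589) and 0.38 in GDel1 against WT (adjusted p = 0.0225). Leaving out GDel1 replicate 2 gave an adjusted p of 0.0111 in GDel2 against WT.

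The make-up of the D cyclin pool followed these genes. Ccnd1 made up 33.8 and 35.4% of the summed D cyclin TPM in GDel2, 25.4 and 20.6% in GDel1 and 22.8 to 26.2% in WT. Ccnd2 made up 3.50 and 3.82% in GDel2, against 0.038 and 0.014% in GDel1 and 0.069 to 0.18% in WT. Ccnd3 held the remainder and stayed the main D cyclin in all 7 libraries, with 62.7 and 60.8% in GDel2, 74.6 and 79.4% in GDel1 and 73.6 to 77.1% in WT. The summed TPM itself was 81.8 and 67.7 in GDel2, 53.0 and 69.4 in GDel1 and 73.2 to 87.4 in WT, so the GDel2 and WT sums overlapped.

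**Figure D3:**
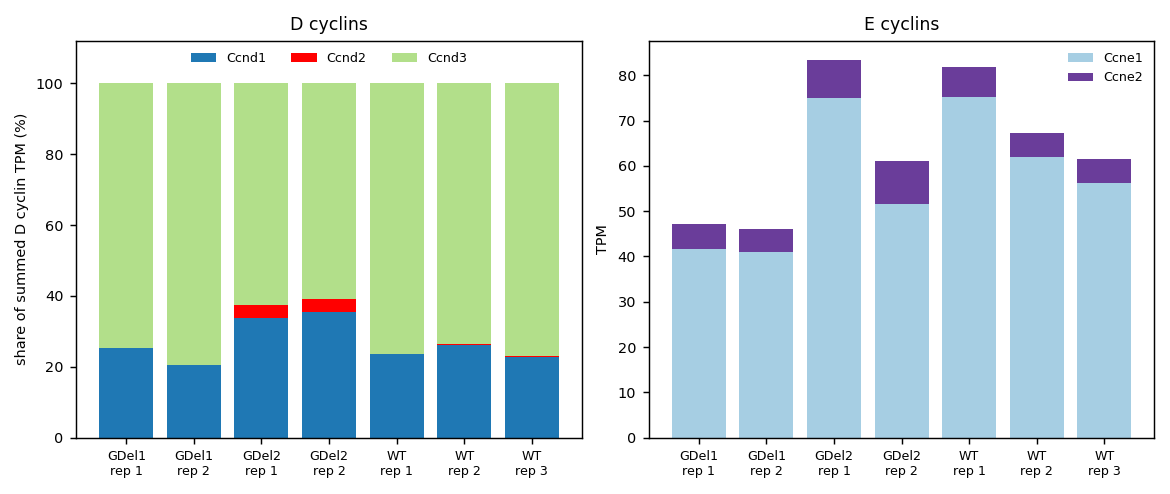
Left, share of the summed D cyclin TPM held by Ccnd1, Ccnd2 and Ccnd3 (percent) and right, TPM of Ccne1 and Ccne2 stacked, each by library with GDel1, GDel2 and WT from left to right. Ccnd2 held 3.50 and 3.82% in GDel2 and at most 0.18% in the other libraries, and the Ccne2 part is widest in GDel2.

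Of the 2 kinases, Cdk6 rose in GDel2 against GDel1, and Cdk4 gave no call. Cdk6 was at 98.7 and 98.3 CPM in GDel2, 67.4 and 69.8 CPM in GDel1 and 95.2, 96.5 and 79.9 CPM in WT. The GDel1 libraries were below all others, and the GDel2 libraries just above WT. Cdk6 rose by 0.52 in GDel2 against GDel1 (SE 0.11, edgeR adjusted p = 0.00895), while GDel2 against WT gave 0.12 (SE 0.10, adjusted p = 0.387). In GDel1 against WT the Cdk6 log2 fold change was -0.40 (SE 0.10, edgeR adjusted p = 0.0702), and it passed with DESeq2 (-0.40, adjusted p = 0.0351) and with limma on log2(TPM + 1) (-0.83, adjusted p = 0.0185).

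Cdk4 was at 328 and 298 CPM in GDel2, 356 and 402 CPM in GDel1 and 305, 312 and 306 CPM in WT. Both GDel1 libraries were above all others, and the GDel2 libraries lay on both sides of WT. The Cdk4 log2 fold change was 0.30 in GDel1 against WT (SE 0.09, edgeR adjusted p = 0.0932), -0.28 in GDel2 against GDel1 (SE 0.10, adjusted p = 0.0674) and 0.02 in GDel2 against WT (SE 0.09, adjusted p = 0.878). On log2(TPM + 1) all 3 turned round, to -0.31, 0.18 and -0.13. Without GDel1 replicate 1, Cdk4 passed in GDel1 against WT (0.39, adjusted p = 0.0182) and in GDel2 against GDel1 (-0.37, adjusted p = 0.0121). The ratio of Cdk4 to Cdk6 in TPM was 32.6 and 27.3 in GDel2, 56.9 and 56.2 in GDel1 and 34.0 to 40.1 in WT, a ratio that does not depend on the scaling of a library. Cdk4 shares its span with Tspan31, and reads of genes that overlap on opposite strands cannot be told apart without the strand setting used in counting.

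**Figure D4:**
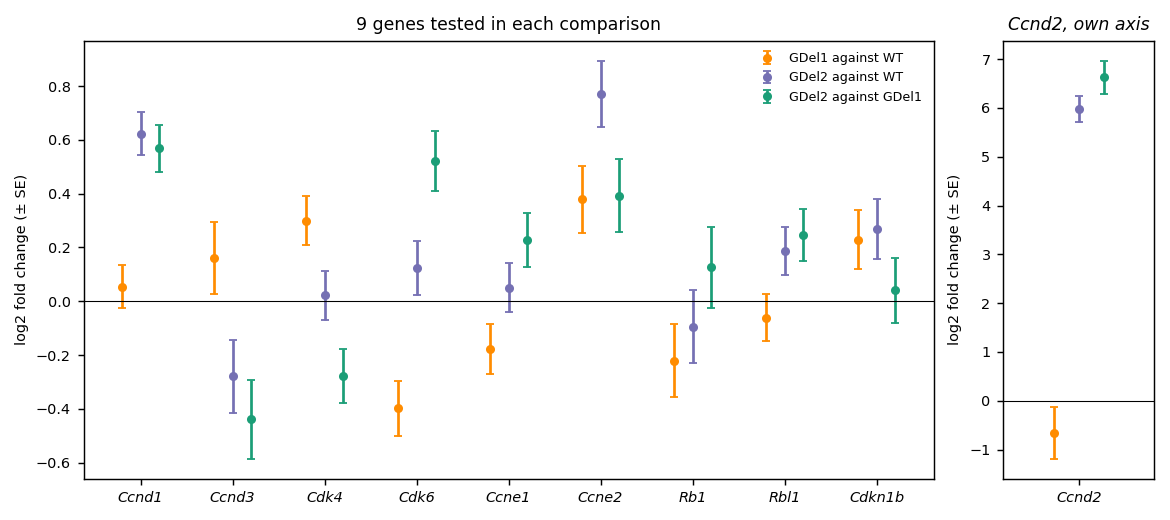
Log2 fold change from edgeR, with SE derived from its F statistic (y axis), of the 9 tested genes and, on its own axis, of Ccnd2. The comparisons are GDel1 against WT, GDel2 against WT and GDel2 against GDel1. Ccne2 at 0.77 and Ccnd1 at 0.62 rose in GDel2 against WT, and Cdk6 at 0.52 and Ccnd1 at 0.57 in GDel2 against GDel1.

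Of the E cyclins, which bind CDK2 at the entry into S phase, Ccne2 rose in GDel2 and Ccne1 did not pass. Ccne2 was at 35.7 and 46.4 CPM in GDel2, 33.2 and 29.5 CPM in GDel1 and 24.4, 24.3 and 23.5 CPM in WT. The 3 groups did not overlap, with GDel2 highest and WT lowest. The log2 fold change was 0.77 in GDel2 against WT (SE 0.12, edgeR adjusted p = 0.00186), 0.39 in GDel2 against GDel1 (SE 0.14, adjusted p = 0.0617) and 0.38 in GDel1 against WT (SE 0.12, adjusted p = 0.112), the last turning to -0.073 with limma on log2(TPM + 1). Ccne2 was the only one of the 9 genes in the fit of all deletion libraries whose 4 deletion libraries all lay apart from the 3 WT libraries, with a log2 fold change of 0.59 (SE 0.16, edgeR adjusted p = 0.147; DESeq2 adjusted p = 0.0236); of all genes tested there 22.3% lay apart, and 9.97% lay apart and higher in the deletion libraries. The Ccne2 span overlaps that of Ints8.

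Ccne1 was at 175 and 152 CPM in GDel2, 133 and 145 CPM in GDel1 and 157, 161 and 155 CPM in WT. The GDel1 libraries were below all others, and GDel2 lay on both sides of WT. The log2 fold change was 0.05 in GDel2 against WT (SE 0.09, edgeR adjusted p = 0.714; -0.042 on log2(TPM + 1)), 0.23 in GDel2 against GDel1 (SE 0.10, adjusted p = 0.125) and -0.18 in GDel1 against WT (SE 0.09, adjusted p = 0.271), where limma on log2(TPM + 1) gave -0.62 (adjusted p = 0.0452). Ccne2 made up 10.3 and 15.7% of the summed E cyclin TPM in GDel2, 11.7 and 11.4% in GDel1 and 7.95 to 8.54% in WT, so both deletion groups were above WT in this share.

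The pocket proteins gave no call. Rb1, the retinoblastoma gene, was at 13.7 and 15.9 CPM in GDel2, 12.6 and 14.5 CPM in GDel1 and 14.1, 16.4 and 16.9 CPM in WT, and all groups overlapped. Its log2 fold change was -0.10 in GDel2 against WT (SE 0.14, edgeR adjusted p = 0.633), 0.13 in GDel2 against GDel1 (SE 0.15, adjusted p = 0.567) and -0.22 in GDel1 against WT (SE 0.14, adjusted p = 0.348). Rbl1, whose promoter with the E2F letters is printed above, was at 38.6 and 41.7 CPM in GDel2, 33.1 and 34.5 CPM in GDel1 and 36.1, 35.2 and 34.6 CPM in WT. GDel2 was above WT and GDel1 below it, by small margins: 0.19 in GDel2 against WT (SE 0.09, edgeR adjusted p = 0.134), 0.25 in GDel2 against GDel1 (SE 0.10, adjusted p = 0.0889) and -0.06 in GDel1 against WT (SE 0.09, adjusted p = 0.711). Per length, Rbl1 exceeded Rb1 in every library, with ratios of 3.24 and 3.07 in GDel2, 2.25 and 2.80 in GDel1 and 2.15 to 2.55 in WT.

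Cdkn1b was at 37.1 and 38.2 CPM in GDel2, 34.5 and 38.6 CPM in GDel1 and 28.3, 30.6 and 34.7 CPM in WT. The GDel2 libraries lay above WT, and the GDel1 libraries reached into the WT range. The log2 fold change was 0.27 in GDel2 against WT (SE 0.11, edgeR adjusted p = 0.0934), 0.23 in GDel1 against WT (SE 0.11, adjusted p = 0.241; -0.16 on log2(TPM + 1)) and 0.04 in GDel2 against GDel1 (SE 0.12, adjusted p = 0.835). Cdkn1b lies on chromosome 6 at 134920401 to 134925525 like Ccnd2. The median log2 fold change of the 28 other genes within 5 Mb of it was 0.65 in GDel2 against WT, above that of Cdkn1b.

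Counted together, 2 of the 9 tested genes rose in GDel2 against WT (Ccnd1 and Ccne2) and 0 fell, against 33.1% of the 15421 genes called in either direction and 17.4% called higher in that comparison. In GDel2 against GDel1, 2 of 9 rose (Ccnd1 and Cdk6) and 0 fell, against 27.7% of all genes called and 14.8% called higher. In that comparison DESeq2 also called Ccnd3 lower, and limma on log2(TPM + 1) also called Ccne2 higher. GDel1 against WT gave edgeR calls for 0 of 10, against 0.376% of all genes, 0.162% called higher and 0.214% called lower. These 10 include Ccnd2, which passed the count filter only through GDel2. Before adjustment 3 (Cdk4, Cdk6, Ccne2) were under 0.05, DESeq2 called 1 (Cdk6) and limma on log2(TPM + 1) called 2 (Cdk6 and Ccne1). Of all 15421 genes, 3776 were under 0.05 there before adjustment, DESeq2 called 993 and limma called 3250. Without GDel1 replicate 1, more members were called in GDel1 against WT and in GDel2 against GDel1, and so were more of all genes. With both deletion groups together against WT, edgeR called 0 of 9, 2 (Ccne2 and Cdkn1b) were under 0.05 before adjustment, DESeq2 called 1 (Ccne2) and limma 0; of 14781 genes edgeR called 0 there, with 2882 under 0.05 before adjustment, DESeq2 980 and limma 2, and Ccnd2 was below the count filter of that fit. In each comparison the members' share of calls in either direction was below or near that of all genes. GDel2 and WT libraries lay apart for 6 of the 9 genes, against 63.2% of all genes; 5 were higher in GDel2, against 32.2%, and 1 lower, against 31.0%. GDel2 and GDel1 libraries lay apart for 7 of the 9, against 59.1% of all genes. Of these, 5 were higher in GDel2, against 29.9%, and 2 lower, against 29.1%. GDel1 and WT libraries lay apart for 5 of 10, against 43.5% of all genes. Of these, 2 were higher in GDel1, against 20.9%, and 3 lower, against 22.6%. The median log2 fold change of the tested members was 0.12 in GDel2 against WT, beside 0.01 over all genes. The 2 comparisons with WT share the WT libraries.

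Of 113 other genes of the pathway in 7 lists, 111 were tested. For each list below, the shares of all genes in GDel2 against WT were 17.4% called higher and 15.6% called lower. In GDel2 against WT 23 rose and 18 fell (36.9% of those tested, beside 33.1% of all genes); DESeq2 called 33 and limma on log2(TPM + 1) called 16. With 1 library left out the 41 became 55 without either GDel1 library, 35 without GDel2 replicate 1, 22 without GDel2 replicate 2 and 25 without each WT library in turn. On chromosome 6, 3 of 4 rose and none fell; on chromosome 8, whose median was 0.45, 6 of 10 rose and none fell; elsewhere 14 of 97 rose and 18 fell. The part of these 2 chromosomes in the counts was not tested. With limma on log2(TPM + 1) the GDel2 against WT calls of Cdc25a, Cdk2, Lin37, E2f6, Cul4a, Fosl2, Gins2, Aurkb and Plk1, described below, and of Rad51ap1 beside Ccnd2 ended (adjusted p 0.0507 to 0.248). With DESeq2 those of Cdk2, Lin37, E2f6 and Fosl2 also ended (adjusted p 0.0532 to 0.159). For GDel1 against WT edgeR called 0 of the 111, with 35 under 0.05 before adjustment. DESeq2 called 13 there and limma on log2(TPM + 1) called 29. Over all 15421 genes these 4 numbers were 58, 3776, 993 and 3250. Leaving out GDel1 replicate 1 or 2 gave more edgeR calls among the pathway genes and among all genes.

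Among the other CDK inhibitors, 1 of 6 fell in GDel2 against WT and none rose, with a median log2 fold change of -0.20. Cdkn1c, the imprinted gene of p57, was at 0.65 to 0.79 CPM in GDel2 and 2.23 to 2.57 CPM in WT (-1.74, SE 0.26, edgeR adjusted p = 0.00145). Without either GDel1 library 3 of the 6 inhibitors were called. Of CDK2 and its activators, 2 of 8 fell and none rose; with 1 library left out 0 to 3 were called, the lowest without GDel2 replicate 2 and without WT replicate 2. Cdc25a, the phosphatase that activates CDK2, was at 118 to 125 CPM in GDel2 and 151 to 160 CPM in WT (-0.36, adjusted p = 0.0106, and 0.0754 without GDel2 replicate 2 or 0.0554 without WT replicate 2). Cdk2 fell by 0.30 (adjusted p = 0.0448), a call that ended without any 1 of the 5 GDel2 and WT libraries (adjusted p 0.0645 to 0.159).

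Of 17 E2F, DP and DREAM factors, 3 rose and 3 fell, and the 2 DP partners of E2F moved in opposite directions. Tfdp1, on chromosome 8, was at 308 to 323 CPM in GDel2 and 186 to 192 CPM in WT (0.74, edgeR adjusted p = 0.000332), while Tfdp2 was at 63.9 to 66.2 CPM in GDel2 and 101 to 106 CPM in WT (-0.66, adjusted p = 0.000705). The repressor E2f6 rose by 0.47 (adjusted p = 0.0151), and Lin37, a subunit of the DREAM complex, fell by 0.47 (adjusted p = 0.0307). Both of these calls ended when single libraries were left out, E2f6 without either GDel2 library, WT replicate 1 or WT replicate 3 (adjusted p 0.0582 to 0.0751), and Lin37 without GDel2 replicate 2 or any WT library (adjusted p 0.0691 to 0.206). The 6 calls of the list became 3 without GDel2 replicate 2, WT replicate 1 or WT replicate 3 and 9 without either GDel1 library, and 4 otherwise.

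Of 13 genes for the turnover of cyclins and inhibitors, 3 rose and 5 fell in GDel2 against WT, and without GDel2 replicate 2 the 8 calls became 5. The cullin scaffolds were split: Cul1, of the SCF ligase and on chromosome 6, was at 215 to 230 CPM in GDel2 and 111 to 129 CPM in WT (0.86, edgeR adjusted p = 0.000269). Cul4a, on chromosome 8, rose by 0.64 (adjusted p = 0.00085). Its paralog Cul4b fell by 0.63 (adjusted p = 0.00165), and Ddb1, the adaptor both CUL4 proteins use, fell by 0.61 (adjusted p = 0.00168) to 786 to 830 CPM in GDel2.

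Mitogen-responsive transcription factors, several of which drive D cyclin genes, had the highest median of the 7 lists in GDel2 against WT, 0.58, with 5 of 12 higher and 1 lower, against 17.4% and 15.6% of all genes, or 4 called without GDel2 replicate 1. Etv4, an ETS factor responsive to ERK, was at 47.8 to 49.6 CPM in GDel2, 11.9 to 13.6 CPM in GDel1 and 14.1 to 15.8 CPM in WT (GDel2 against WT 1.70, SE 0.10, edgeR adjusted p = 1.78e-05). Mycl fell by 1.72 (SE 0.13, adjusted p = 5.22e-05), with 14.9 to 15.9 CPM in GDel2 and 49.2 to 53.0 CPM in WT. Egr1 was at 1.16 to 1.42 CPM in GDel2 and 0.16 to 0.43 CPM in WT (2.12, edgeR adjusted p = 0.00697). Fosl2 was at 1.34 to 1.37 CPM in GDel2 and 0.37 to 0.80 CPM in WT (1.33, edgeR adjusted p = 0.0319). Both were low in all groups and, like Ccnd2, passed the count filter only through their GDel2 counts. The filter thus favoured a rise in GDel2, so these 2 calls decide nothing, though the list count and median above include both genes. The Egr1 call ended without GDel2 replicate 1. The Fosl2 call ended without either GDel2 library, WT replicate 1 or WT replicate 3 (adjusted p 0.0872 to 0.15).

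S phase genes rose in 9 of 30 cases in GDel2 against WT and none fell, against 17.4% of all genes called higher, with a median of 0.10. The S phase median was 0.17 in GDel1 against WT, where edgeR called 0 of the 30, beside 0.376% of all genes. In GDel2 against GDel1 the median was -0.058, with 4 higher and 2 lower, against 14.8% and 12.8% of all genes. In GDel2 against WT 5 were called without GDel2 replicate 2, 4 without any 1 WT library and 13 without either GDel1 library. Pcna, the DNA polymerase clamp, was at 442 to 483 CPM in GDel2, 336 to 378 CPM in GDel1 and 253 to 309 CPM in WT (GDel2 against WT 0.71, SE 0.11, edgeR adjusted p = 0.00139). Rfc3, a clamp loader subunit, rose by 0.67 (adjusted p = 0.00104), and Mcm5, a helicase subunit on chromosome 8, by 0.64 (adjusted p = 0.000446). Gins2, also on chromosome 8, rose by 0.74 (adjusted p = 0.0279), a call that ended without GDel2 replicate 1 or any 1 of the WT libraries (adjusted p 0.0734 to 0.201). Of 25 G2 and M phase genes 3 rose and 6 fell, with a median of -0.12, and the 9 calls became 3 without GDel2 replicate 2 and 4 or 5 without any 1 WT library. Wee1, the kinase that holds back CDK1, was at 79.0 to 93.4 CPM in GDel2 and 125 to 132 CPM in WT (-0.57, adjusted p = 0.00228). Mad2l1, a spindle checkpoint gene on chromosome 6, rose by 0.75 (adjusted p = 0.0139, and 0.115 without GDel2 replicate 2 or 0.0525 without WT replicate 3). Aurkb fell by 0.50 (adjusted p = 0.0147) and Plk1 by 0.48 (adjusted p = 0.0282), both mitotic kinases; the Aurkb call ended without GDel2 replicate 2, WT replicate 2 or WT replicate 3 (adjusted p 0.0515 to 0.091) and the Plk1 call without GDel2 replicate 2 or any 1 of the WT libraries (adjusted p 0.0709 to 0.204).

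**Figure D5:**
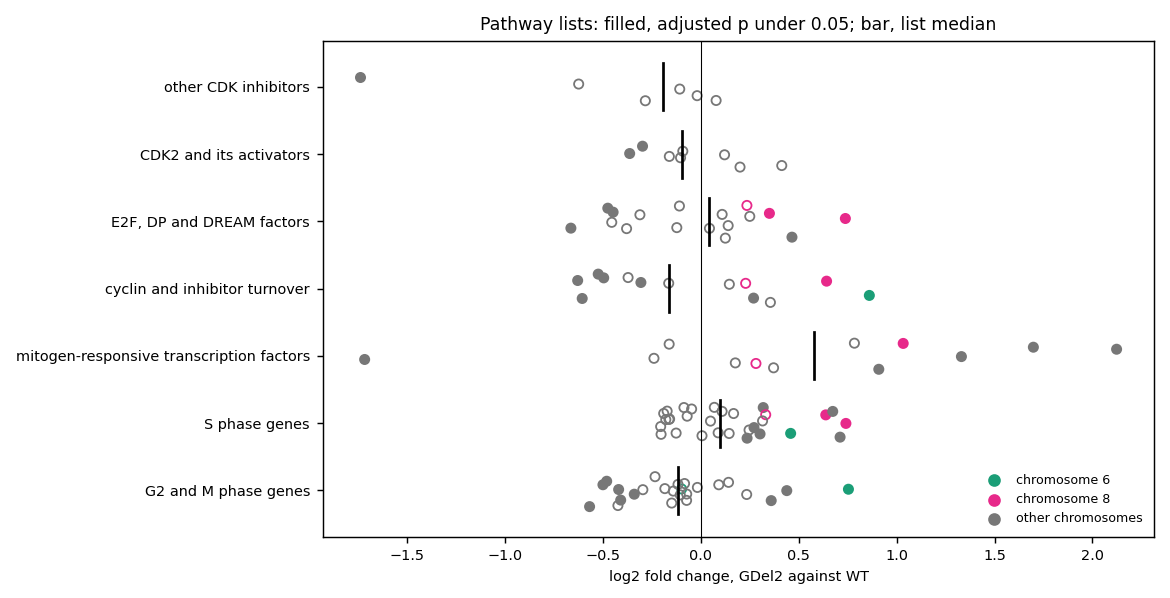
Log2 fold change in GDel2 against WT (x axis) of the tested genes of 7 pathway lists (rows); filled points passed the edgeR test, open points did not, colours give chromosome 6, chromosome 8 or another chromosome, and black bars are list medians. The median of the mitogen-responsive factors is 0.58, and 6 of 10 genes on chromosome 8 rose.

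Marker lists of this and other cell types were summed in each library. Genes called higher or lower below are edgeR calls in GDel2 against WT, where 17.4% of all genes were called higher and 15.6% lower. The 6 core pluripotency genes, which define the labelled cell type, were all present. They summed to 2394 to 2568 CPM in GDel2, 2132 to 2156 CPM in GDel1 and 2324 to 2366 CPM in WT. Of 6 tested, 2 were higher and 2 lower in GDel2 against WT. The 12 naive pluripotency genes summed to 3622 to 3832 CPM in GDel2, 3901 to 4191 CPM in GDel1 and 4435 to 4551 CPM in WT, with 1 higher and 3 lower in GDel2 against WT. The 9 neuroectoderm genes summed to 114 to 119 CPM in GDel2, 56.2 to 61.8 CPM in GDel1 and 49.2 to 53.6 CPM in WT; 3 of 4 tested rose, and Neurog2 and Fabp7 were at 0 in GDel2. The 8 mesendoderm genes summed to 21.4 to 22.7 CPM in GDel2, 6.30 to 7.73 CPM in GDel1 and 7.07 to 7.61 CPM in WT; 2 of 3 tested rose, and Mesp1 and Hand2 were at 0 in all groups. The 6 germ cell genes summed to 41.4 to 42.6 CPM in GDel2, 15.2 to 15.3 CPM in GDel1 and 17.1 to 20.5 CPM in WT, and 4 of 5 tested rose. Sums were lower in GDel2 than in WT for formative and primed genes (8 genes, 85.2 to 89.6 CPM in GDel2, 113 to 117 in GDel1 and 121 to 127 in WT, 2 higher and 4 lower of 6 tested), primitive endoderm (10 genes, 78.9 to 106 CPM in GDel2, 72.8 to 99.2 in GDel1 and 113 to 118 in WT, 2 higher and 1 lower of 4 tested, Afp at 0), trophoblast (9 genes, 20.3 to 24.9 CPM in GDel2, 30.6 to 41.5 in GDel1 and 30.5 to 33.0 in WT, 2 higher and 5 lower of 7 tested) and fibroblast feeder genes (8 genes, 718 to 1153 CPM in GDel2, 1105 to 1860 in GDel1 and 2264 to 2350 in WT, 1 higher and 2 lower of 4 tested, Col3a1, Lum and Dcn at 0 in GDel2). The naive, formative and primed, primitive endoderm and feeder sums of GDel1 were also below those of WT. A large part of several sums came from 1 gene, named here after the values were seen. Without Tfcp2l1, Dnmt3b and Lama1, the most abundant gene of each list in WT, the sums were higher in GDel2 than in WT. They were 2615 to 2634 CPM in GDel2, 2382 to 2413 in GDel1 and 2556 to 2582 in WT for the other naive genes, and 43.0 to 48.4 CPM in GDel2, 32.6 to 35.9 in GDel1 and 34.9 to 35.9 in WT for the other formative and primed genes. The other primitive endoderm genes summed to 13.6 to 15.9 CPM in GDel2, 3.62 to 3.85 in GDel1 and 5.81 to 6.72 in WT. Without Fn1 the feeder sum stayed lower, at 163 to 190 CPM in GDel2, 267 to 284 in GDel1 and 311 to 328 in WT. Without Nanog the core sum turned lower in GDel2 than in WT. It was 1040 to 1163 CPM in GDel2, 1133 to 1214 in GDel1 and 1274 to 1311 in WT. The part of these cell types in the Ccnd2, Ccnd1 and Ccne2 results was not tested.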

How the data were processed

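The 7 RNA-seq libraries, 3 wildtype and 4 with the deletion, were used; the other 59 of the 66 samples were not analysed here. Total RNA was depleted of ribosomal RNA, per the labels' protocols. The deposited tables hold expected counts (the authors' RSEM estimates per gene, not scaled for depth), TPM scaled by the authors over effective length, and gene lengths in bases; the deposited FPKM values were not used. Per the submitters' processing notes the build was mm10 and the tools were HiC-Pro, deepTools, Bowtie2, RSEM and STAR, with no version named. The release of the annotation and the strand setting were not given in the sources used here.

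Expected counts were rounded and filtered with filterByExpr (minimum count 10, minimum total 15), which left 15421 genes. Fits used R 4.3.3 and edgeR 4.0.16 with TMM scaling, 1 fit of 3 groups, and the robust quasi-likelihood test with Benjamini-Hochberg adjustment over all genes (threshold 0.05). All deletion libraries against WT were tested in a fit of 2 groups. Each SE given with an edgeR value is the absolute log2 fold change divided by the square root of the quasi-likelihood F statistic. DESeq2 1.42.0, limma 3.58.1 on log2(TPM + 1) or log2(TPM + 0.1), other filters, a replicate block and left-out libraries were alternatives. The edgeR script was tested on simulated data. Of 55487 identifiers 55141 had a symbol; positions came from RefSeq GRCm38.p6 by symbol, and Skp1 was matched as Skp1a. Named genes were the 10 members, Praf2, genes tested within 200 kb of Ccnd2, the 5 most like Ccnd2 (log2 CPM with a prior count of 2; 1 of them is not reported here), and of each pathway list up to 4 called genes with the largest changes. The members and lists were chosen with earlier results of these data known. Library totals of 12316853 to 18762704 limit the precision of low counts.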

Additional observations from a re-analysis of the deposited data

Results flagged for a closer look

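The 2 deletion groups share a genotype label, and the genes below passed the edgeR test (Benjamini-Hochberg adjusted over 15421 genes) of the difference between them; 27.7% of all genes did. Values are log2 fold changes of GDel2 against GDel1. Among the described genes, Ccnd1 differed by 0.57 and Cdk6 by 0.52. Praf2 differed by 0.50, a call that ended with DESeq2 (adjusted p = 0.0633), in the 2 groups alone (adjusted p = 0.116), with the replicate block (adjusted p = 0.081), without GDel1 replicate 2 (adjusted p = 0.0602) and without GDel2 replicate 2 (adjusted p = 0.0886).

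Whether the calls named in this paragraph held in other settings is not given here, and several were close to the threshold. Of the inhibitor and CDK2 lists, Cdkn1c differed by -1.55, Cdc25a by -0.31 and Cdk2 by -0.33 (edgeR adjusted p 0.00467, 0.0341 and 0.0459). The E2F partners Tfdp1 at 0.74 and Tfdp2 at -0.61 were opposed, and E2f6 differed by 0.51. Turnover genes split in the same comparison, with Cul1 at 0.59 and Cul4a at 0.54, against Cul4b at -0.66 and Ddb1 at -0.53. Of the mitogen-responsive factors, Etv4 differed by 1.94 and Egr1 by 1.52 (edgeR adjusted p = 0.0417 for Egr1), while Mycl differed by -1.51. Egr1 passed the count filter only through its GDel2 counts, so its call decides nothing. The S phase genes Pcna, Rfc3 and Mcm5 differed by 0.37, 0.33 and 0.52 (edgeR adjusted p 0.0461, 0.0491 and 0.00281). Of the G2 and M phase genes, Mad2l1 differed by 0.74 and Wee1 by -0.45.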

How the results depend on the processing

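The calls of Ccnd1 and Ccne2 in GDel2 against WT, and of Ccnd1 and Cdk6 in GDel2 against GDel1, held in each fit that left out 1 library. Over those 7 fits the number of members called was 0 to 2 in GDel1 against WT, 2 to 3 in GDel2 against WT, 2 to 5 in GDel2 against GDel1 and 0 to 0 for all deletion libraries; both high counts came without GDel1 replicate 1. In GDel1 against WT, members called were 1 with DESeq2, 2 without a count filter and 2 and 2 with limma on TPM. The libraries of high mitochondrial share were GDel1 replicate 1 and GDel2 replicate 2. Without both, more members were called in GDel1 against WT and in GDel2 against GDel1, and so were more of all genes. Limma on TPM called 1 in GDel2 against WT, and DESeq2 called 1 for all deletion libraries. Ccnd2 in GDel2 against WT was 1.77 on log2(TPM + 1) and 3.92 on log2(TPM + 0.1), which compress low values by construction.

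Limma on TPM moved the median of all genes in GDel1 against WT to -0.30 with a pseudocount of 1 and to -0.44 with 0.1, in all deletion libraries to -0.17 and -0.25, and in GDel2 against GDel1 to 0.24 and 0.36; its calls there were 3383 higher and 364 lower. With these pseudocounts, in GDel1 against WT, Ccnd1 turned to -0.43 and -0.45, Ccnd3 to -0.34 and -0.35, Cdk4 to -0.31 and -0.31, Ccne2 to -0.073 and -0.083, and Cdkn1b to -0.16 and -0.18. Cdk4 turned to -0.13 and -0.13 in GDel2 against WT and to 0.18 and 0.18 in GDel2 against GDel1, and Ccne1 in GDel2 against WT to -0.042 and -0.043. Without a filter, Cdk4 in GDel2 against WT was -0.0043; without both libraries of high mitochondrial share, Cdkn1b and Rb1 in GDel2 against GDel1 were -0.075 and -0.097. With 1 library left out, ranges that crossed 0 were -1.49 to 0.066 for Ccnd2 and -0.11 to 0.38 for Ccnd3 in GDel1 against WT, -0.057 to 0.087 for Cdk4, -0.065 to 0.15 for Ccne1 and -0.037 to 0.016 for Parp11 in GDel2 against WT, and -0.040 to 0.12 for Cdkn1b in GDel2 against GDel1. The cause of these changes was not tested.

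Correlations of the deviations of same-numbered libraries from their group means were -0.21 to 0.10. In a group of 2 libraries these deviations mirror each other, so the values cannot decide whether replicate numbers pair the libraries. The replicate block kept the members called at 0, 2, 2 and 0, and gave 15 pathway genes in GDel2 against WT and 15 in GDel2 against GDel1, against 41 and 41; Praf2 in GDel1 against WT did not pass with it (adjusted p = 0.141). Pathway genes called in GDel1 against WT were 0, against 13 with DESeq2, 18 without a filter, 2 with the stricter one, 29 and 32 with limma and 44 without the libraries of high mitochondrial share. Limma gave 16 and 16 in GDel2 against WT and 25 and 26 in GDel2 against GDel1, where the 2 groups alone gave 10. With 1 library left out they were 0 to 20, 22 to 55 and 22 to 44 in these 3 comparisons. Genes called in GDel1 against WT were 58, against 993 with DESeq2, 2357 without a filter, 225 with the stricter one, 3250 and 3531 with limma, 1 with the block, 12 in the 2 groups alone and 4262 without the libraries of high mitochondrial share. In GDel2 against WT they were 5099, against 2604 and 2492 with limma and 2296 with the block; in GDel2 against GDel1 4268, against 2235 with the block and 2153 in the 2 groups alone; for all deletion libraries 0, against 980 with DESeq2. With 1 library left out, genes called were 4 (without WT replicate 1 or 2) to 2034 (without GDel1 replicate 1) in GDel1 against WT, 2643 (without GDel2 replicate 2) to 6578 (without GDel1 replicate 2) in GDel2 against WT and 2602 (without GDel2 replicate 2) to 5617 (without GDel1 replicate 1) in GDel2 against GDel1. Of 23 named pathway genes, 13 kept their call in each fit without 1 library.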
